A study of Mus musculus with 2 samples.

Results

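The Hox cluster genes were taken as every gene whose non-control spots carry a mouse symbol made of Hox, a cluster letter from a to d and a number. They came to 39 of 35017 genes named on the array, read by 44 of 55681 probes and 62 of 59305 non-control spots. The HoxA cluster gave 11 genes, HoxB 10, HoxC 9 and HoxD 9. Of the 44 probes, 43 had an accession found in RefSeq, and all 43 carried the same symbol there.

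The RNA came from cells labelled GT1-7, neurons of the mouse hypothalamus immortalised by a viral T antigen and best known as a source of gonadotropin-releasing hormone (GnRH). The GnRH group received 50 nM of the peptide for 30 min and the vehicle group received DMSO for 30 min, both in DMEM after growth with 10% serum, with 1 array each and no genetic change between them. A free-text label of both samples names another line and another agonist, so the groups follow the treatment labels. With 1 array per group no difference had a replicate check, no test was made, and the precision of every value is limited by there being 2 arrays.

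Hox genes encode homeodomain transcription factors that give cells along the body axis their regional identity. They lie in 4 clusters, and the order of genes in a cluster follows the order of their domains in the embryo: low-numbered genes act from the hindbrain backwards, high-numbered ones in the trunk end, limbs and urogenital tract. Genes of the same number in different clusters are paralogues. In the embryo the forebrain, which gives rise to the hypothalamus, forms in front of the Hox domains, and Polycomb complexes hold unused clusters silent while trithorax and MLL complexes keep used ones active.

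The probes were 60 nt long, and 5 of the 44 were recognised as reading part of the homeobox. This stretch encodes the DNA-binding homeodomain and is the most alike between paralogues. Recognition was by short motifs in the translation, so probes in other parts of the homeobox were not counted. Of the 5, 4 are printed because their targets are conserved, with 1 probe over the hexapeptide, the short motif with which Hox proteins bind PBX partners. Capitals mark the codons of the conserved stretch that was recognised by its translation, and positions are those of build mm9 in the files.
Hoxa13, homeobox, chr6:52208980-52209039, minus strand: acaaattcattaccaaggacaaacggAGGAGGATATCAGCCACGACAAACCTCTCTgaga
Hoxc11, homeobox, chr15:102787022-102787081, plus strand: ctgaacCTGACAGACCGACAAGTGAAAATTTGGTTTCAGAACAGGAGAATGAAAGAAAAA
Hoxc12, homeobox, chr15:102768889-102768948, plus strand: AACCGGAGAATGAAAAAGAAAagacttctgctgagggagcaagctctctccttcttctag
Hoxd10, homeobox, chr2:74532280-74532339, plus strand: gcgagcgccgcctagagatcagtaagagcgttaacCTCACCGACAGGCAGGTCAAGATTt
Hoxa6, hexapeptide, chr6:52158194-52158253, minus strand: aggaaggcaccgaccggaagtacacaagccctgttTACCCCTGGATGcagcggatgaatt
Over all 946 pairs of Hox probes the longest identical run was 11 bases. Probes were not compared with the transcripts of other Hox genes, so this does not measure how specific a probe is. The parts of the other probes in exons or untranslated regions were not assigned, since an annotation of build mm9 was not used here.

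Before the Hox values, the cell label was set against its markers. Gnrh1, which encodes the GnRH precursor and defines the labelled cell, was read by 2 probes and stayed at background on both arrays. Of the 6 GnRH neuron markers 4 were well above background on both arrays, namely Isl1, Otx2, Dlx5 and Ndn. Isl1 had a signal of 2479 in the GnRH array and 2457 in the vehicle array. Otx2 (1 of its 2 probes), Dlx5 and Ndn had 31.3 to 49.9 in the GnRH array and 21.7 to 80.2 in the vehicle array. The lowest signals well above background were 14.06 in the GnRH array and 16.3 in the vehicle array. Of 8 pituitary gonadotrope markers 7 were well above background on both arrays, among them Cga, Nr5a1, Pitx1 and the GnRH receptor gene Gnrhr, and Fshb was on neither. The 4 named ran from 13656 (Gnrhr) to 69481 (Cga) in the GnRH array and from 14862 to 80508 in the vehicle array. Lhb had 72.1 in the GnRH array and 71.5 in the vehicle array. Among 6 forebrain patterning genes 4 were on both arrays (Six3, Otx2, Emx2 and Lhx2), and Otx1 was on neither. Among 6 hindbrain and cord patterning genes 2 were (Gbx2 and Mnx1), Egr2 was on the GnRH array only, and Olig2 was on neither. None of 6 markers of other pituitary lineages was on both arrays, and Tbx19 and Gh were on the GnRH array only. Tbx19 had a signal of 1048 in the GnRH array and 8.08 in the vehicle array. Its spot lay in an area where neighbouring spots of unrelated genes differed together. Of 12 markers of glia, immune, stromal, endothelial and blood cells 7 were on both arrays, and Gfap was on the GnRH array only. Gfap too was near that limit, at 19.1 in the GnRH array and 15.7 in the vehicle array. Among all genes named on the array 60.6% were on both arrays. The part that a mixture of cells could have in the Hox values was not tested. In such bulk RNA, fewer cells with a transcript and less of it per cell cannot be told apart.

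Hox expression in these cells was uneven between clusters. A probe counted as well above background where the scanner software gave that mark to at least 50% of the spots kept for it, and a gene where any of its probes did. By that call 15 of the 39 Hox genes (38.5%) were present on both arrays, against 60.6% of all genes named on the array and 69.2% of RefSeq protein-coding genes. HoxA had 8 of 11 genes present and HoxD 6 of 9, whereas HoxB had 1 of 10 and HoxC 0 of 9. HoxA and HoxD together had 14 of 20 (70%), HoxB and HoxC 1 of 19 (5.26%). These counts depend on the call: with the software's looser background flag HoxA had 9 of 11, HoxD 6 of 9, HoxB 2 of 10 and HoxC 5 of 9, and 74% of all genes were present. Hoxc6 was above background on the GnRH array only, a class that held 2.68% of all genes, and Hoxa2 on the vehicle array only, a class that held 0.925%. The other 22 Hox genes were above background on neither array.

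**Figure D1:**
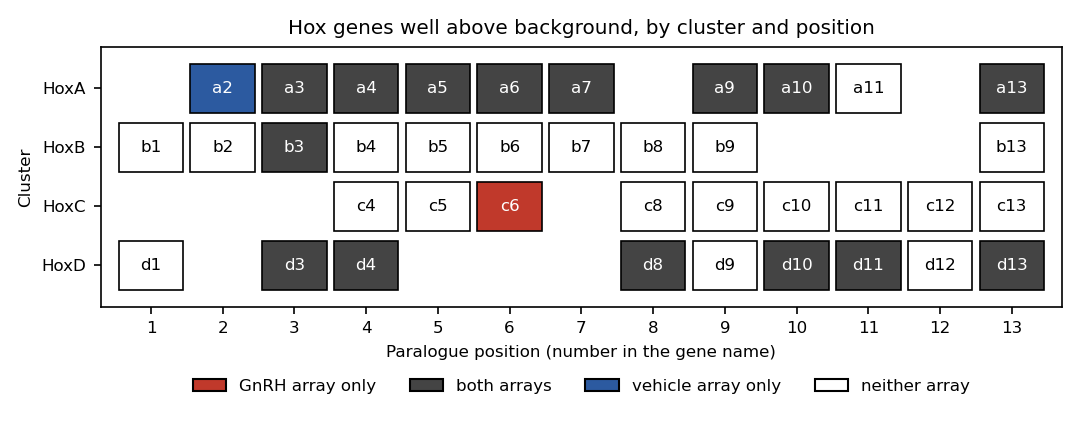
Each box is 1 Hox gene, placed by cluster (rows) and paralogue position (columns), and its shade gives the arrays on which the gene was well above background. The 15 genes present on both arrays sit in HoxA (8), HoxD (6) and, for Hoxb3, HoxB (1), and most boxes of HoxB and HoxC are empty.

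Within HoxA the present genes were neighbours. Hoxa3, Hoxa4, Hoxa5, Hoxa6, Hoxa7, Hoxa9 and Hoxa10, all genes of the cluster from position 3 to position 10, were present. Beyond them Hoxa11 was on neither array and Hoxa13 was present. This run is unbroken only by the main call. Under a stricter background call, and with all probes of a gene required, Hoxa9 was not on both arrays. With all probes required Hoxa13 was not either. HoxD was interrupted, with Hoxd3, Hoxd4 and Hoxd8 present, Hoxd9 on neither array, Hoxd10 and Hoxd11 present, Hoxd12 on neither array and Hoxd13 present. By paralogue position, all 3 genes of position 3 were present, as were 2 of 4 at position 4, 2 of 3 at position 10 and 2 of 4 at position 13. None of the 2 genes of position 2 or the 2 of position 12 was present on both arrays, and positions 5 to 9 and 11 had 1 each.

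The low-numbered genes, which pattern the hindbrain and neck, were read as follows. Hoxb1, Hoxd1 and Hoxb2 had processed signals (the scanner software's background-subtracted brightness, linear) of 3.18 to 3.37 in the GnRH array and 3.79 to 4.03 in the vehicle array. All 3 lay under the lowest signal of any probe well above background, which was 14.06 in the GnRH array and 16.3 in the vehicle array. Hoxa2, needed for the second pharyngeal arch, had 10.8 in the GnRH array and 20.0 in the vehicle array. Its vehicle signal was at least 1.33-fold higher after scaling, measured against the lowest GnRH signal well above background. Both values are close to that limit.

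The position 3 and 4 genes act in the pharyngeal region and the cervical spine. Hoxa3, needed for the thymus and parathyroid, had a signal of 88.2 in the GnRH array and 86.9 in the vehicle array, a log2 difference of 0.12 ± 0.22. Here and below a log2 difference is GnRH minus vehicle after each array was scaled to its 75th percentile, and the error is the scanner software's. Hoxb3 had 118 in the GnRH array and 115 in the vehicle array (0.14 ± 0.21) on its homeobox probe. Its other probe, at chr11:96209002-96209061, was not above background, with 2.93 in the GnRH array and 3.43 in the vehicle array. The presence of the 1 detected HoxB gene thus rests on the homeobox probe, and whether related transcripts contribute to that signal was not tested. Hoxc11 and Hoxc12, also read in the homeobox, were above background on neither array. Hoxc11 had 3.18 in the GnRH array and 3.79 in the vehicle array, and Hoxc12 had 9.75 in the GnRH array and 9.76 in the vehicle array.

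Hoxd3, which shapes the atlas vertebra, had 97.6 in the GnRH array and 134 in the vehicle array (-0.37 ± 0.22). Hoxd4 had 1078 in the GnRH array and 1359 in the vehicle array (-0.24 ± 0.20). Hoxa4 had 29.7 in the GnRH array and 42.7 in the vehicle array (-0.43 ± 0.28). These 3 genes were lower in the GnRH array by more than the scanner error and by less than 1.5-fold. Hoxb4, a regulator of blood stem cells, and Hoxc4 were on neither array, at 3.11 and 3.37 in the GnRH array and 3.69 and 5.16 in the vehicle array.

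Of the central genes, which pattern the thorax, HoxA members were present. Hoxa5, needed for lung development, had 157.7 in the GnRH array and 159.3 in the vehicle array (0.08 ± 0.21). Hoxa6 had 48.4 in the GnRH array and 44.1 in the vehicle array (0.23 ± 0.26). Hoxa7 had 5195 in the GnRH array and 5472 in the vehicle array (0.02 ± 0.20). The differences of all 3 lay within the scanner error. Hoxd8 had 1670 in the GnRH array and 1704 in the vehicle array (0.07 ± 0.20). Their HoxB and HoxC paralogues Hoxb5, Hoxb7, Hoxb8, Hoxc5 and Hoxc8 had signals of 2.81 to 3.51 in the GnRH array and 3.29 to 4.79 in the vehicle array. Hoxb6 did not carry the mark, at 15.6 in the GnRH array, above the lowest signal so marked, and 16.1 in the vehicle array, below it. Hoxc6, which specifies limb-innervating motor neurons, had 16.2 in the GnRH array, with the mark, and 16.1 in the vehicle array, without it. Its bound was at least 1.06-fold higher in the GnRH array, and both of its signals lay at the detection limit.

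Of the high-numbered genes, which pattern the lumbar and tail regions, limbs and reproductive tract, 6 were present. Hoxa9, a regulator of blood progenitors, had 25.1 in the GnRH array and 30.2 in the vehicle array (-0.17 ± 0.31). Its other probe was above background on the GnRH array only, at 22.6 in the GnRH array and 15.9 in the vehicle array, so the 2 probes differed in sign. Hoxa10, needed in the uterus, had 160.4 in the GnRH array and 161.9 in the vehicle array (0.08 ± 0.21). Hoxd10, expressed in lumbar motor neurons, had 51.8 in the GnRH array and 67.1 in the vehicle array (-0.28 ± 0.23) on its homeobox probe. This value too was lower by more than the scanner error.

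Hoxd11, which with Hoxa11 builds the forearm, had 122 in the GnRH array and 137 in the vehicle array (-0.07 ± 0.21), and its other probe gave 65.7 in the GnRH array and 69.0 in the vehicle array (0.02 ± 0.23). Both probes were above background on both arrays. Hoxa13 and Hoxd13, the digit and urogenital genes at the ends of their clusters, were present. Hoxa13 had 53.9 in the GnRH array and 61.3 in the vehicle array (-0.09 ± 0.23) on its homeobox probe, and 9.41 in the GnRH array and 13.1 in the vehicle array on a probe that was on neither. Hoxd13 had 241 in the GnRH array and 234 in the vehicle array (0.14 ± 0.21). Hoxb9, Hoxb13, Hoxc9, Hoxc13, Hoxd9 and Hoxd12 stayed at 3.02 to 3.64 in the GnRH array and 3.58 to 4.39 in the vehicle array. Hoxc10 had 16.8 in the GnRH array and 9.06 in the vehicle array and carried the mark on neither, so it has no fold.

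**Figure D2:**
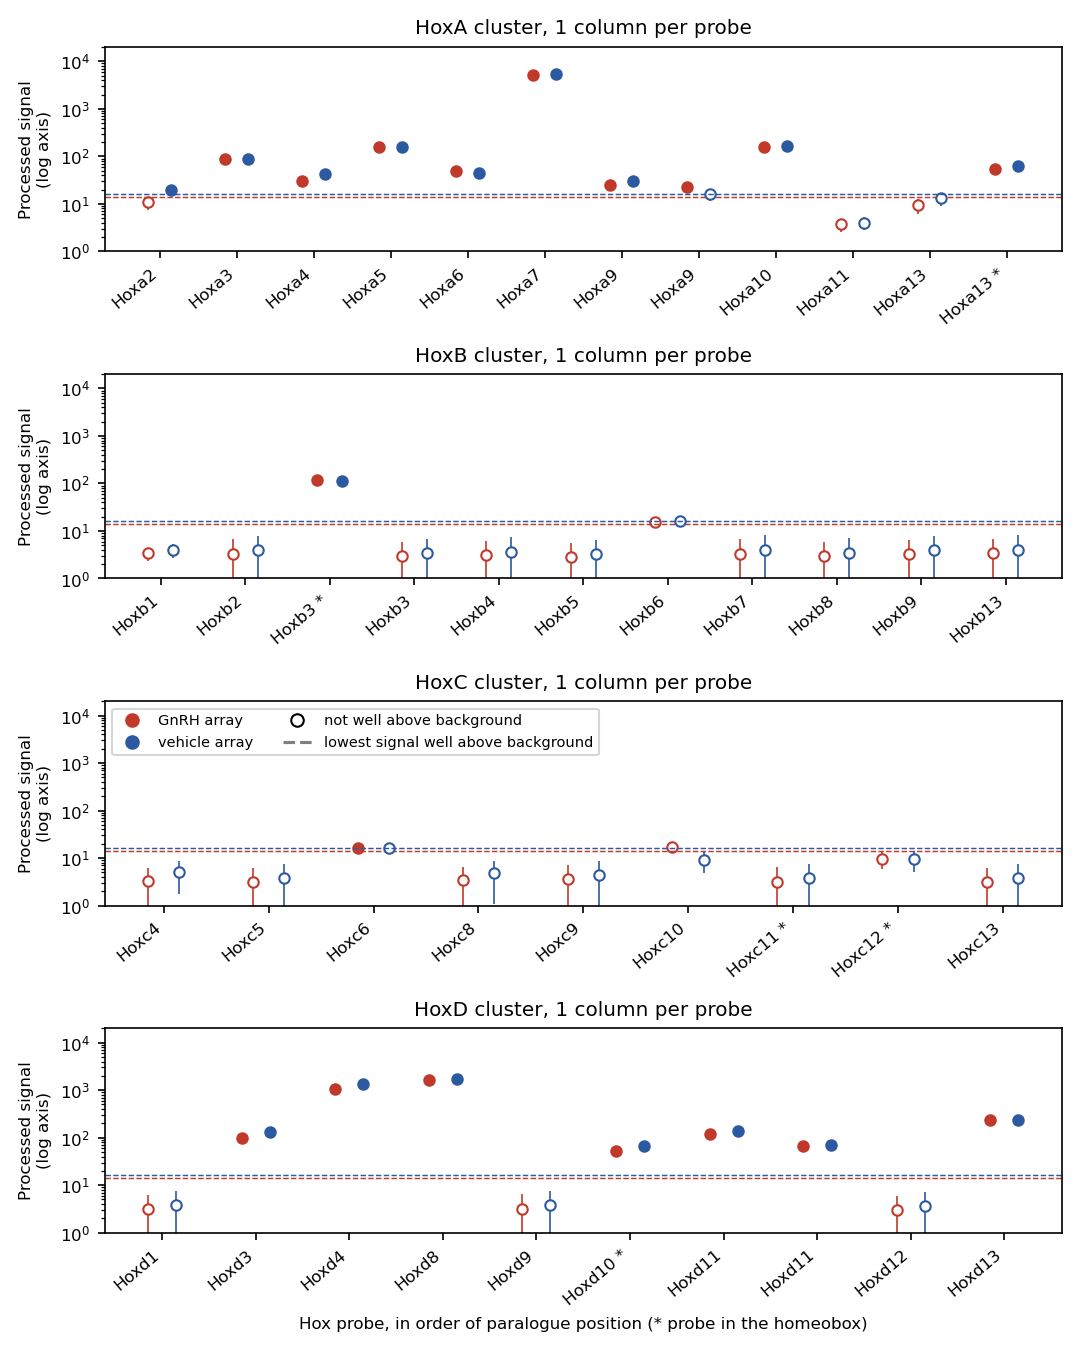
Each column is 1 Hox probe, with its processed signal (log axis) in the GnRH array to the left and the vehicle array to the right and bars for the scanner error, cut off at 1. Filled points were well above background, dashed lines give the lowest signal so marked (14.06 in the GnRH array and 16.3 in the vehicle array), and heights of different probes cannot be set against each other.

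Hoxa11 and Hoxb1 were each printed on 10 spots per array, so their background call rests on more than a single spot. None of their 40 spots was well above background. The Hoxa11 spots ran from 3.03 to 13.3 (median 3.46) in the GnRH array and from 3.63 to 4.72 (median 4.03) in the vehicle array. The spot at 13.3 was marked as an outlier and left out. The Hoxb1 spots ran from 3.15 to 3.71 (median 3.32) in the GnRH array and from 3.74 to 4.48 (median 3.96) in the vehicle array. The arrays' Hoxb1 spots did not overlap, with both groups of spots at the floor of their array.

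**Figure D3:**
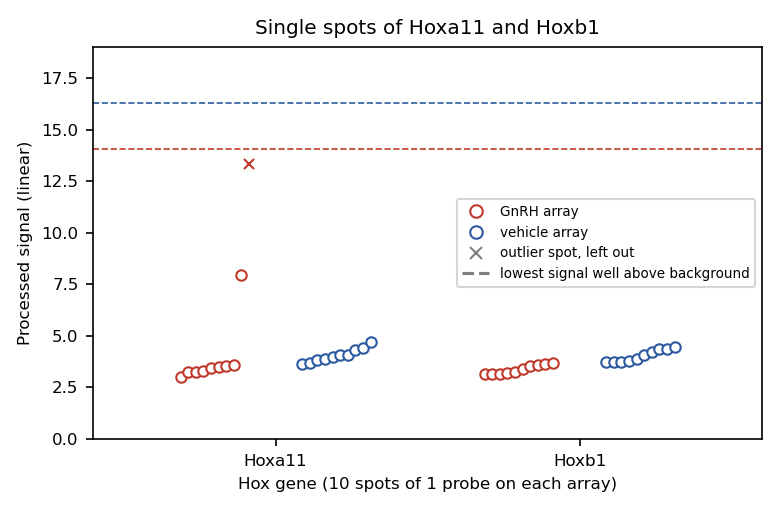
Single spots of the Hoxa11 and Hoxb1 probes are plotted by processed signal (linear axis), GnRH to the left of vehicle and drawn in order of signal. All 40 spots lie below the dashed lines at 14.06 (GnRH) and 16.3 (vehicle), the lowest signals well above background.

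No Hox gene differed 2-fold between the arrays after 30 min of GnRH. Of the 15 measured genes 0 were at least 2-fold higher, a class with 0.311% of the 21219 genes measured on both arrays, and 0 were at least 2-fold lower, a class with 0.132%. At 1.5-fold the count was also 0. Differences ran from -0.43 (Hoxa4) to 0.23 (Hoxa6), with 8 above 0 and 7 below. Their median was 0.02, beside -0.01 over all measured genes, whose central 95% ran from -0.39 to 0.43. For 11 of the 15 (73.3%) the difference lay within the scanner error, as it did for 85.9% of all measured genes.

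The 4 genes outside it were Hoxa4, Hoxd3, Hoxd4 and Hoxd10, all lower in the GnRH array. Over all measured genes 6.78% were lower and 7.34% higher by more than the scanner error. The 6 measured HoxD genes had a median of -0.15 with 4 below 0, and the 8 HoxA genes a median of 0.05 with 3 below 0. These values depend on the background correction and on the offset added with it. With normexp, which models background instead of using the software's subtraction, Hoxa4 was at -0.11, Hoxd10 at -0.11 and Hoxd3 at -0.21, each within its scanner error, and Hoxd4 was at -0.22, past it. The offset of 50 draws the differences of dim genes toward 0, while the errors stay those of the main values. Falling within the error under normexp therefore cannot decide whether a dim gene differed.

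**Figure D4:**
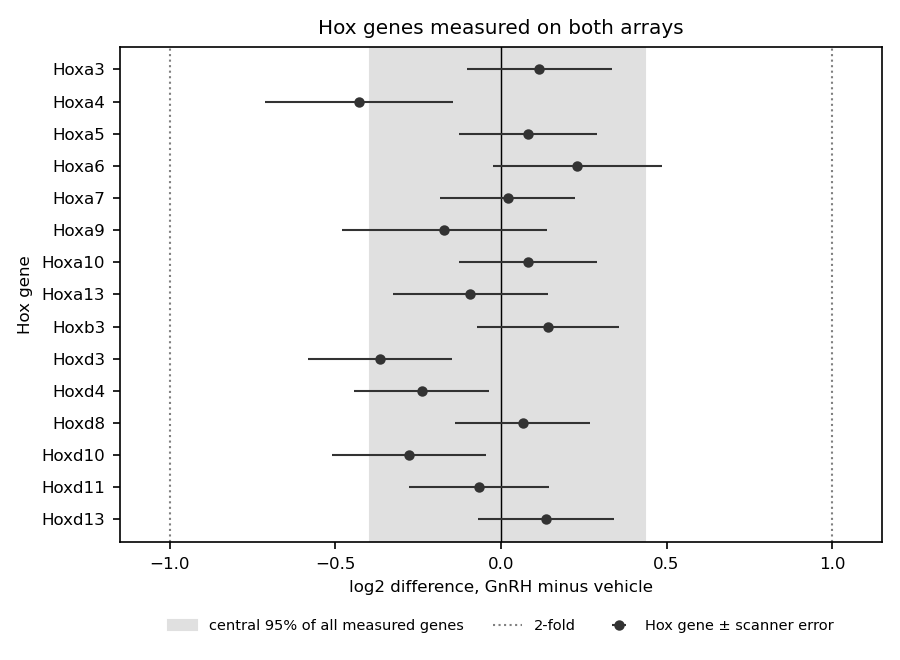
Log2 differences (GnRH minus vehicle) of the 15 Hox genes measured on both arrays are shown as points with the scanner error as bars. All points lie inside the dotted 2-fold lines, and Hoxa4 at -0.43 is the only one outside the grey band from -0.39 to 0.43 that holds the central 95% of all measured genes.

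The clusters also hold probes for other transcripts, taken as every other non-control probe between the outermost Hox probes of a cluster. HoxB spans chr11:96057854-96228510, HoxC chr15:102759058-102867272 and HoxD chr2:74509248-74603059 (mm9). Other probes were above background on both arrays for 1 of 6 in HoxA, 7 of 22 in HoxB, 2 of 6 in HoxC and 3 of 5 in HoxD. So HoxB and HoxC, with 1 of 20 Hox probes above background, had 9 of 28 other probes above it. Many of the 28 shared a transcript or predicted interval, so they were not 28 separate transcripts. Those above background in HoxB lay between the Hoxb13 and Hoxb9 probes, except a probe at chr11:96174257-96174316. That probe had 57.4 in the GnRH array and 42.7 in the vehicle array. HoxA and HoxD, with 15 of 24 Hox probes above background, had 4 of 11 other probes above it. Spots well above background made up 56.9% on the GnRH array and 55.2% on the vehicle array.

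In HoxD, 3 noncoding or unnamed transcripts lay among the present genes. Hoxd3os1, on the strand opposite to the Hox genes, had 1058 in the GnRH array and 1193 in the vehicle array (-0.08 ± 0.20). Its other probe carried the mark on neither array, at 12.9 in the GnRH array and 18.9 in the vehicle array. AI448005, on the Hox strand 2832 nt from the Hoxd4 probe, had 955 in the GnRH array and 1336 in the vehicle array (-0.39 ± 0.20). It was thus lower in the GnRH array by more than the scanner error, as were the Hoxd4 and Hoxd3 probes on either side of it. An opposite-strand transcript known only by an Ensembl accession had 1212 in the GnRH array and 1310 in the vehicle array (-0.02 ± 0.20).

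In HoxA, 2700086A05Rik (RefSeq symbol Hoxaas3), read 2378 nt from the Hoxa6 probe, had 25.8 in the GnRH array and 41.0 in the vehicle array (-0.57 ± 0.31). An opposite-strand probe whose start lies 20 nt from that of the Hoxa3 probe was on neither array, at 2.79 in the GnRH array and 3.25 in the vehicle array, while Hoxa3 was present. Hoxa11os and Hottip, antisense and distal noncoding RNAs of the same cluster, were also on neither.

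In HoxC, Hotair, a long noncoding RNA known in human cells to act on HoxD through Polycomb, was above background with 1 of its 5 probes, at 53.8 in the GnRH array and 57.9 in the vehicle array (-0.01 ± 0.24). The other 4 were on neither array. Gm4200 had 63.4 in the GnRH array and 52.6 in the vehicle array (0.36 ± 0.25). In HoxB an unnamed probe had 95035 in the GnRH array and 101950 in the vehicle array (-0.01 ± 0.20). The Hox probe nearest to it was that of Hoxb9, at 27627 nt. The remaining 6 present HoxB probes read intervals predicted as noncoding RNA, and in each of those 4 intervals other probes of the same interval were on neither array.

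**Figure D5:**
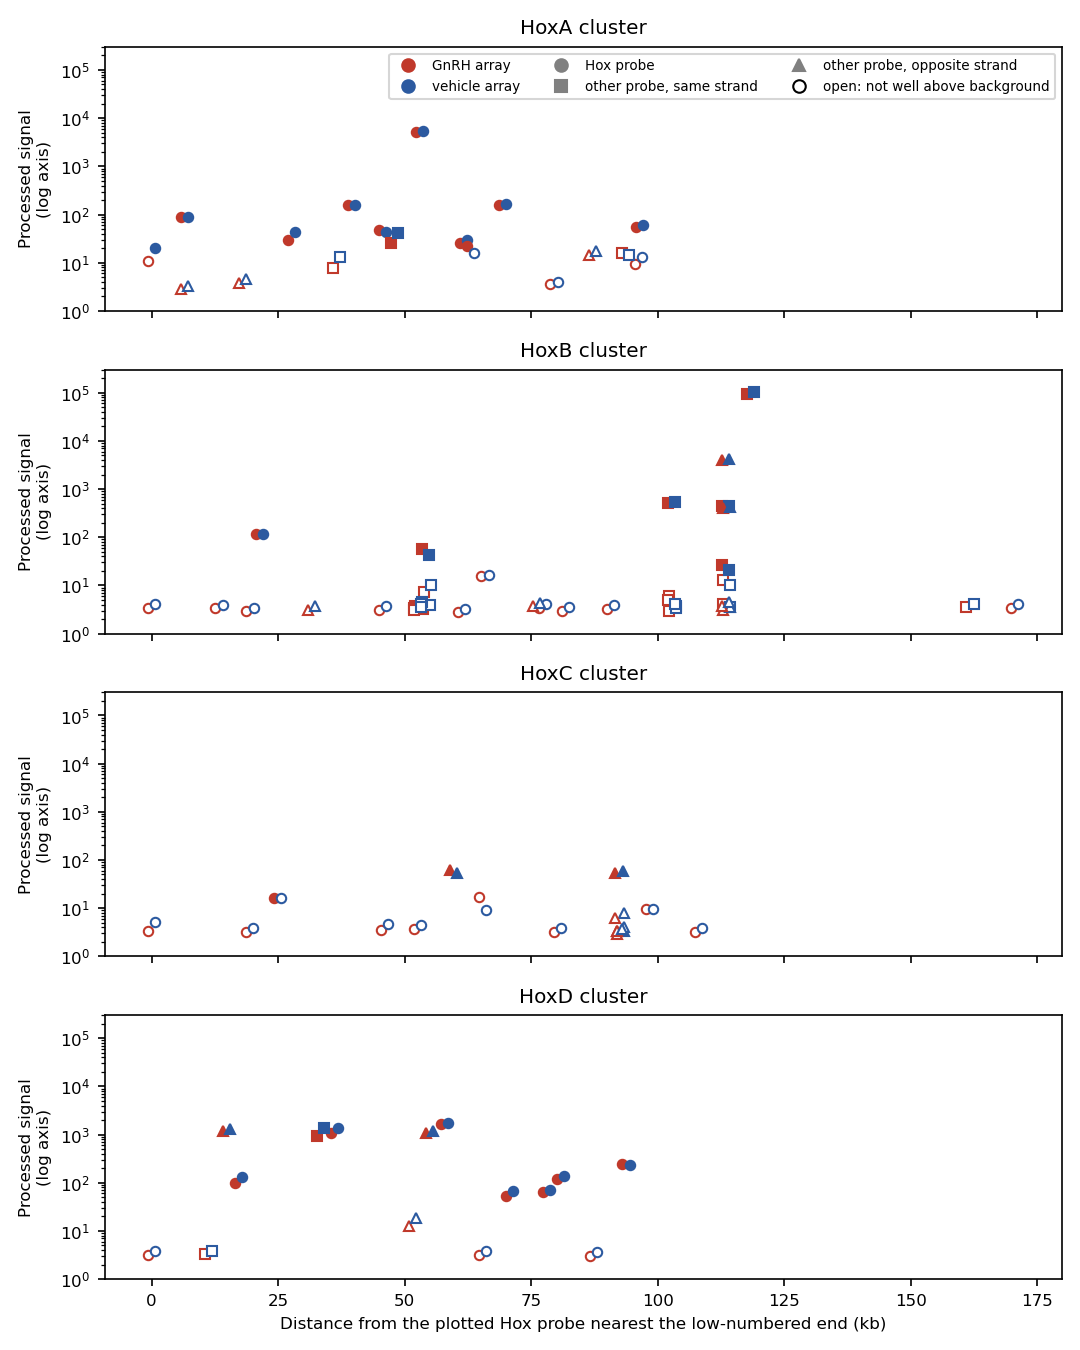
Probes inside the 4 clusters are plotted by distance in kb from the plotted Hox probe nearest the low-numbered end and by processed signal (log axis), with the GnRH point drawn slightly left of the vehicle point. Filled Hox circles fill the middle of HoxA and most of HoxD, HoxB has 1 and HoxC holds 1 filled for the GnRH array only (Hoxc6), and each cluster has filled points of other probes: squares (same strand) in HoxA, HoxB and HoxD, and triangles (opposite strand) in HoxB, HoxC and HoxD.

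The genes next to the clusters were present regardless of cluster, at 13 of 14, with a median log2 difference of -0.00 and a range of -0.16 (Snx11) to 0.39 (Ttll6). The homeobox genes Evx1 and Evx2, which close the HoxA and HoxD clusters beyond position 13, were among them. Evx1 had 697 in the GnRH array and 686 in the vehicle array, and Evx2 636 in the GnRH array and 669 in the vehicle array. Skap1, beside HoxB, was on neither array with any of its 4 probes. Of the ParaHox genes, the related homeobox genes outside the clusters, 1 of 6 was present, Cdx1, with 24.8 in the GnRH array and 21.5 in the vehicle array (0.30 ± 0.35).

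The proteins that work with Hox factors or on Hox chromatin were mostly present and near 0. Of 9 TALE partner genes, whose PBX, MEIS and PREP proteins bind DNA with Hox proteins, 8 were present with a median of 0.01, from -0.10 (Pbx4) to 0.06 (Pknox1), and Meis1 was on neither array. All 12 trithorax and MLL genes were present, with a median of 0.01, from -0.10 (Kmt2d) to 0.43 ± 0.21 for Kdm6a, an H3K27 demethylase. All 18 Polycomb genes were present, with a median of 0.03 and 0 past 2-fold. Cbx8, which encodes a chromodomain subunit of Polycomb repressive complex 1, was past 1.5-fold (0.64 ± 0.20), and Mtf2 was lowest at -0.09. In 3 areas of the array neighbouring spots of unrelated genes differed together, and no Hox spot lay in them.

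Of 17 upstream regulators of Hox expression 10 were present on both arrays, with a median of 0.16, from -0.05 (Rxrg) to 0.30 (Cdx1), and 0 were past 2-fold. The retinoic acid receptors Rara and Rarg were present and Rarb was on neither array, nor were Cdx2, Cdx4, Aldh1a2 and Cyp26a1. Egr2, also called Krox20, which switches on Hoxa2 and Hoxb2 in hindbrain segments, passed the background call only after GnRH, with a signal of 2186 in the GnRH array and 8.16 in the vehicle array. Its bound was at least 143-fold higher in the GnRH array. Beside it, Hoxb2 was on neither array, and Hoxa2 passed the call only in the vehicle array.

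RefSeq promoters (build GRCm38.p6, 250 bases before to 50 after the start) were found for 22 of the 39 Hox genes and searched for the letters CG, which read the same on both strands. The letters were found in 94.6% of all 32851 promoters, with a median of 7 per promoter. The 22 Hox promoters had a median of 17.5, and 29.7% of all promoters held at least as many. The 13 with a gene present on both arrays had a median of 21, from 4 (Hoxa9) to 45 (Hoxa13), and the 8 with a gene on neither a median of 13.5, from 9 (Hoxc4) to 29 (Hoxd1). The ranges overlapped.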

How the data were processed

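Cy3-labelled RNA of 2 samples was read on 1-colour Agilent arrays. Per the file headers, the authors' scanner software (Feature Extraction 10.7.1.1; 9.5.1.1 per the submitters' processing notes) subtracted background and wrote a processed intensity and an error per spot; for bright spots that error is mostly its setting of 0.1. The software's detection-limit metric was out of range on the vehicle array. The value table that the authors deposited gives 1 linear intensity for each probe; its normalization is not given in the sources used here, and its columns, with medians of 28.44 and 28.44, matched the scanner values of their arrays (r = 1.00 across probes, log2 scale).

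Control and outlier spots were left out (94 GnRH, 121 vehicle; none saturated), the log2 intensity of the spots of a probe was averaged, and each array's 75th percentile (541 GnRH, 578 vehicle) was subtracted. Spots well above background were 56.9% (GnRH) and 55.2% (vehicle). A gene was its brightest probe measured on both arrays; 1-array genes got bounds against the lowest signal well above background. Hox genes are named, other lists give counts and extremes, and some genes and 1 sequence that these rules take are not reported here. Names came from the accession in RefSeq (27235 probes) or the files. The members and lists were chosen with earlier results of these data known. Alternatives changed background call, background correction (normexp, offset 50, limma 3.58.1), scaling (median, quantile, lowess fraction 0.3), filter, probe rule, fold limit (1.5, 3), outlier spots, areas and value source; leaving out homeobox probes was added after seeing the data. Scripts ran in Python 3.11.15 and were tested on simulated data.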

Additional observations from a re-analysis of the deposited data

How the results depend on the processing

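Under 12 settings of scaling, background correction, filter, probe rule and value source, the median Hox difference stayed between -0.15 (no filter on dim probes, which adds genes at the floor) and 0.04, within the scanner error, and 0 Hox genes passed 2-fold. At 1.5-fold and 3-fold, counted for the 15 genes above background on both arrays, the number was also 0; with no filter Hoxc10 (1.98-fold higher in the GnRH array) and Hoxa2 (1.73-fold lower) would pass 1.5-fold. Of 179 gene values 2 moved by more than the scanner error, both of Hoxa4 (-0.11 with normexp, -0.08 with no background correction), and 3 changed sign. Presence depended more on the call. With the looser background flag 2 HoxB and 5 HoxC genes were present on both arrays and 0 on the vehicle array only, as 74% of all genes were then present on both. The stricter call left 0 genes on the GnRH array only and 0 on the vehicle array only. It left 7 HoxA genes on both, without Hoxa9. With all probes of a gene required, 2 genes were on the GnRH array only and 0 HoxB genes on both. HoxA then had 6 genes on both, without Hoxa9 and Hoxa13. Leaving out the recognised homeobox probes, chosen after seeing the data, also left 0 HoxB genes on both. It left 12 of 36 Hox genes on both, with HoxA at 7 (without Hoxa13) and HoxD at 5 (without Hoxd10). The causes were not tested beyond what each setting itself changes. Signal over background limits genes near 14.06 (GnRH) and 16.3 (vehicle). No paired analysis was possible because each group has 1 array.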
